A study of Mus musculus with 2 samples.

Results

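The genes described here are 9 genes whose products build or anchor the junctions between neighbouring Sertoli cells and between Sertoli cells and germ cells, the structure known as the blood-testis barrier: Cldn11, Cldn3, Ocln, Tjp1, Gja1, Cdh2, F11r, Jam3 and Espn. They were taken by name from the 36547 gene symbols that the 2 deposited tables list together, and all 9 were present in both tables. The tables hold unique molecular identifier (UMI) counts, in which each tagged RNA molecule is counted once, for single cells from the testis of C57BL/6 mice aged 12 weeks. Of the 2 libraries, one came from wild-type (WT) animals and the other from Alkbh5-/- (KO) animals, which lack the RNA demethylase ALKBH5 in every cell of the body. Each genotype has 1 library, although the methods describe testes of several mice, so no difference between WT and KO could be set against a spread between animals, and no test was possible.

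The barrier lies near the base of the seminiferous tubule and divides the epithelium into a basal and an adluminal compartment, so that meiotic and postmeiotic germ cells develop behind it. Claudins and occludin form the sealing strands of its tight junctions, junctional adhesion molecules sit beside them, and ZO-1, the product of Tjp1, ties them to actin. Connexin 43 forms gap junctions, N-cadherin forms adherens junctions, and espin cross-links the actin bundles of the ectoplasmic specialization, an anchoring junction that Sertoli cells build at the barrier and around spermatid heads.

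The libraries held 5756 WT and 7012 KO barcodes with medians of 10905.5 and 9117.5 UMIs per cell, and 45 barcode sequences occurred in both. Alkbh5 itself had 607 UMIs in WT and 5 in KO, which matches the labels. The cells were grouped into 16 clusters without the junction genes among the clustering features, and each cluster was named from marker genes. A level is given as the gene's UMIs per 1000000 UMIs of the cells summed (CPM), with an exact 95% Poisson interval, and a difference as a log2 ratio of KO over WT with an exact 95% interval. All these intervals cover counting error only. UMI tags do not scale with transcript length in a known way, so levels were compared between cells within a gene and not between genes.

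The cluster carrying Sertoli markers did not hold the same kind of cell in both libraries. It had 49 WT cells, 0.851% of the library (exact 95% interval 0.630 to 1.12%), and 480 KO cells, 6.85% (6.27 to 7.46%). In 33 of the 49 WT cells under 1% of UMIs came from the 20 Sertoli markers, and in those 33 cells the 14 elongating spermatid markers made up a median of 21.0% of UMIs. The same was true of 69 of the 480 KO cells, with a median of 16.1%. The other cells, 16 in WT and 411 in KO, had medians of 2.85% and 3.28% Sertoli marker UMIs and of 0.638% and 0.111% elongating spermatid marker UMIs. These 16 and 411 cells are called Sertoli marker cells below. The 1% limit was set after the values were seen, with 6 WT and 15 KO cells between 0.5 and 1% and 2 WT and 16 KO cells between 1 and 1.5%. A doublet caller marked 0 of the 49 WT cells and 41 of the 480 KO cells. Every Sertoli result is therefore given for the whole cluster and for the Sertoli marker cells, and the name Sertoli-like holds for a minority of the WT cells in the cluster.

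**Figure D1:**
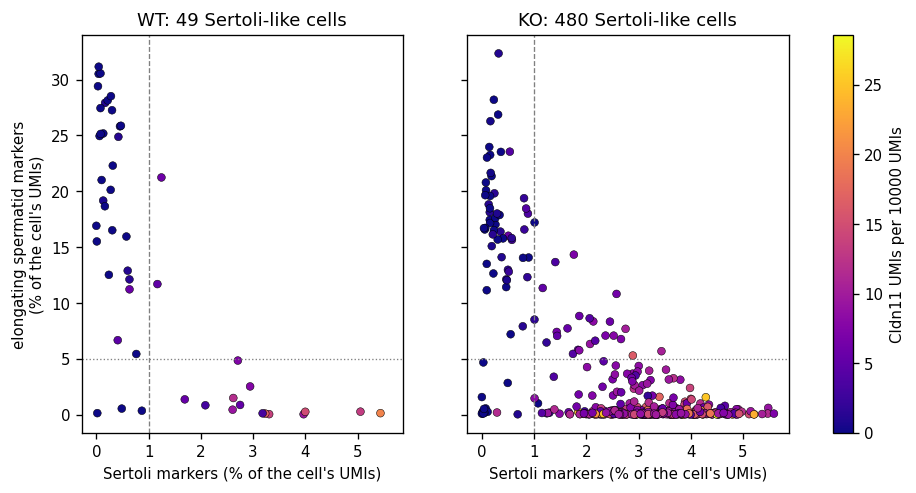
Each point is 1 cell of the Sertoli-like cluster, with the share of its UMIs from Sertoli markers on the x axis and from elongating spermatid markers on the y axis, both in percent. Colour gives the Cldn11 share of the UMIs of the cell on the scale printed beside the bar, the dashed line marks 1% and the dotted line 5%. Of the 49 WT cells, 33 lie left of the dashed line, against 69 of the 480 KO cells, and 7 of those 33 WT and 27 of those 69 KO cells held a Cldn11 UMI, a few of them at levels seen right of the line.

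Counts of the 9 genes followed that division closely. A median of 5.5 of the 9 genes had a UMI in a WT Sertoli marker cell and a median of 5 in a KO one, against a median of 1 in the other cells of the cluster in either library. In the cluster as a whole, 6 of the 9 genes were at least 2-fold higher in KO with an interval above no change. Of 13850 genes with at least 10 UMIs in the cluster, 21.0% met the same rule, and the median log2 ratio was 1.36 for the 9 genes beside 0.70 for all genes counted. None of the 9 was at least 2-fold lower, against 11.5% of all genes. Among the Sertoli marker cells only Cdh2 remained at least 2-fold higher, beside 2.27% of 12723 genes, and none was 2-fold lower, beside 3.39%. There the median log2 ratio of the 9 genes was 0.05, with 0.25 for all genes counted and -0.26 when genes at 0 in 1 library were set to 3 UMIs.

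**Figure D2:**
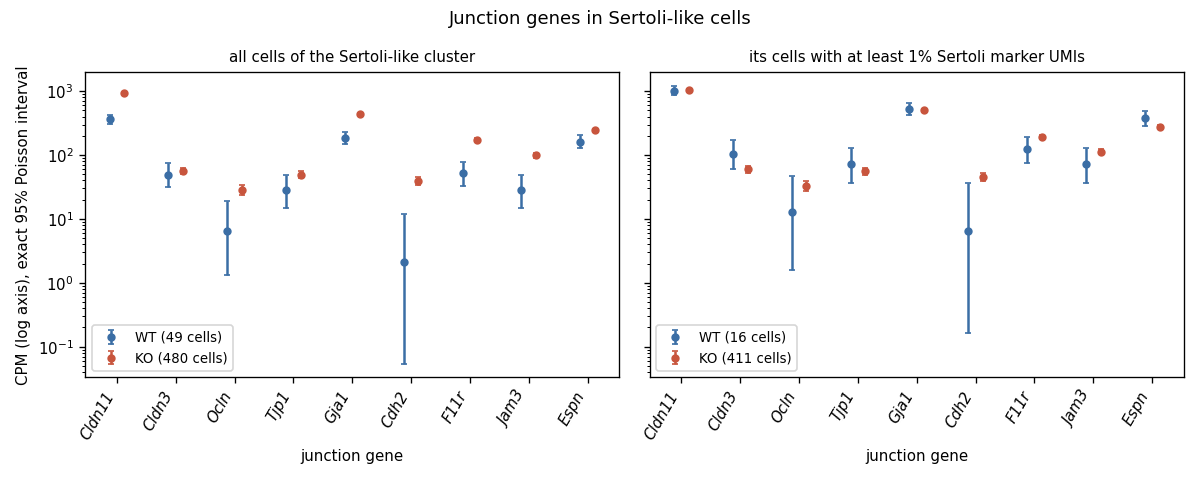
Levels of the 9 genes in CPM on a log axis with exact 95% Poisson intervals, WT in blue and KO in red. In all cells of the Sertoli-like cluster (left) Cldn11, Ocln, Gja1, Cdh2, F11r, Jam3 and Espn lie higher in KO with intervals apart, and in the Sertoli marker cells (right) Cdh2 is the only gene of the 9 whose intervals are apart.

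Cldn11 encodes claudin 11, the claudin that Sertoli cells need to form their tight junction strands. In the Sertoli-like cluster it had 168 UMIs in WT, 362 CPM (309 to 421), and 4381 UMIs in KO, 926 CPM (899 to 954), a log2 ratio of 1.36 (1.13 to 1.59). Within the Sertoli marker cells it stood at 1019 CPM in WT (865 to 1192) and 1052 CPM in KO (1021 to 1084), a log2 ratio of 0.05 (-0.18 to 0.29). All 16 WT marker cells and 409 of the 411 KO marker cells held a Cldn11 UMI, with a median of 9 UMIs per WT cell and 10 per KO cell. The level in Sertoli marker cells was thus close in the 2 libraries, and the interval leaves room for a difference of up to 1.22-fold in that ratio.

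Cldn3, a second barrier claudin, had 23 UMIs in the WT cluster (49.6 CPM, 31.4 to 74.4) and 267 in the KO cluster (56.5 CPM, 49.9 to 63.7). In the Sertoli marker cells it was lower in KO, 59.8 CPM (52.5 to 67.7) against 105 CPM (59.7 to 169.7), with a log2 ratio of -0.81 (-1.53 to 0.02). That interval includes no change, and a single WT cell gave 8 of the 16 WT UMIs, so the WT level rests on few cells. A UMI was seen in 7 of 16 WT and 123 of 411 KO marker cells.

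Ocln, which encodes occludin, was sparse. Only 3 UMIs were counted in the WT cluster and 134 in KO, 28.3 CPM (23.7 to 33.6), a log2 ratio of 2.13 with a wide interval (0.55 to 4.43). All 134 KO UMIs lay in the Sertoli marker cells, where 107 of 411 cells held one. The WT marker cells held 2 UMIs, and the log2 ratio there was 1.32 (-0.56 to 4.38), so no difference was detectable at this depth.

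Tjp1, which encodes the scaffold ZO-1, had 13 UMIs in the WT cluster (28.0 CPM, 14.9 to 47.9) and 233 in KO (49.3 CPM, 43.1 to 56.0). In Sertoli marker cells the order turned, with 71.9 CPM in WT (35.9 to 129) and 55.4 CPM in KO (48.4 to 63.1). The log2 ratio went from 0.81 (0.01 to 1.75) in the whole cluster to -0.38 (-1.24 to 0.65) in the marker cells, and in the marker cells the intervals of the 2 levels overlap.

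The junctional adhesion molecules F11r (JAM-A) and Jam3 (JAM-C) are immunoglobulin-like proteins, and JAM-C on spermatids also binds partners on Sertoli cells. F11r had 24 UMIs in the WT cluster and 812 in KO, 51.7 CPM (33.1 to 76.9) against 172 CPM (160.1 to 184). Its levels in the Sertoli marker cells were 124 CPM (74.7 to 194) and 194 CPM (180.5 to 208), a log2 ratio of 0.64 (-0.01 to 1.38). Jam3 had 13 UMIs in the WT cluster and 471 in KO, 28.0 CPM (14.9 to 47.9) against 99.6 CPM (90.8 to 109). In the marker cells Jam3 was at 71.9 CPM (35.9 to 129) and 112 CPM (102 to 123), a log2 ratio of 0.64 (-0.21 to 1.66). Both genes lay higher in KO in either set of cells, and in the marker cells both intervals include no change.

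Gja1 encodes connexin 43, the main gap junction protein of Sertoli cells. It had 86 UMIs in the WT cluster (185 CPM, 148 to 229) and 2083 in KO (440.5 CPM, 422 to 459.8), a log2 ratio of 1.25 (0.94 to 1.58). In the Sertoli marker cells the levels were 529 CPM (420.2 to 658) and 501 CPM (479 to 523), and the log2 ratio was -0.08 (-0.40 to 0.26). A UMI was found in 11 of 16 WT and 373 of 411 KO marker cells. Of the 9 genes, Cldn11 and Gja1 had the narrowest intervals in the marker cells, and for both the interval spanned no change. A single WT marker cell gave 25.9% of the WT Gja1 UMIs, and a single one gave 18.6% of those of Cldn11. The intervals do not cover this spread between cells.

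Cdh2 encodes N-cadherin, which joins Sertoli cells to one another and to germ cells. It had 1 UMI in the WT cluster, in a marker cell, and 187 UMIs in KO, all in marker cells. Its KO level in the marker cells was 45.4 CPM (39.2 to 52.4) and 145 of 411 cells held a UMI. The WT level of 6.53 CPM had an interval of 0.165 to 36.4 CPM, which ends below the KO interval. The log2 ratio was 4.20 (1.70 to 9.51) in the whole cluster and 2.80 (0.30 to 8.11) in the marker cells. Cdh2 was the one gene of the 9 that stayed past the 2-fold rule in the marker cells, and its WT side was a single molecule from 16 cells.

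Espn encodes espin, the actin-bundling protein of the ectoplasmic specialization. It went from 75 UMIs and 162 CPM (127 to 203) in the WT cluster to 1150 UMIs and 243 CPM (229 to 258) in KO, a log2 ratio of 0.59 (0.25 to 0.95). In the Sertoli marker cells the direction was opposite, with 379 CPM (288 to 490) in WT and 275 CPM (259 to 291) in KO and a log2 ratio of -0.46 (-0.85 to -0.06). Espn was also the gene with most UMIs in the other WT cells of the cluster, 17 UMIs and 54.7 CPM, with a UMI in 12 of those 33 cells.

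The share of Sertoli marker cells with a UMI was also read at equal depth, with each cell thinned to 5729 UMIs, which left out 1 WT and 28 KO cells. Cldn11 was then found in 100% of 15 WT cells (exact 95% interval 78.2 to 100%) and 99.0% of 383 KO cells (97.3 to 99.7%). Among pooled germ cells thinned in the same way, 0.0572% of WT and 1.13% of KO cells held a Cldn11 UMI, and without thinning, at median depths of 10979.5 and 9596 UMIs, 0.179% and 2.26%. Thinned shares were 73.3% in WT (44.9 to 92.2%) and 84.9% in KO (80.9 to 88.3%) for Gja1. F11r was found in 9 of 15 WT and 253 of 383 KO cells, and Jam3 in 3 of 15 and 166 of 383. For Cdh2 they were 6.67% (0.169 to 31.9%) and 23.5% (19.3 to 28.1%), and these intervals overlap, unlike those of its summed level.

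Other markers moved with the cluster-wide differences. The 20 Sertoli markers summed to 12137 CPM in the WT cluster and 28588 CPM in KO, and 16 of the 20 were at least 2-fold higher in KO, as were 6 of the 9 junction genes. The 14 elongating spermatid markers, all detected, summed to 143292 CPM in WT and 29842 CPM in KO. In the Sertoli marker cells the Sertoli markers summed to 31296 and 32415 CPM, with Amh and Trf at 0 in WT, and 2 of 20 were at least 2-fold higher in KO. These cells were chosen by the same 20 markers, which fixes those sums in part. Elongating spermatid markers were still higher in WT there, 25398 against 10999 CPM. The 8 peritubular myoid markers summed to 489.9 and 423 CPM in the marker cells and to 1778 and 4426 CPM in the other cells of the cluster. Scaling by the summed Sertoli markers gave 1 junction gene at least 2-fold higher in KO and 1 lower over the whole cluster.

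The junction genes were placed on the mouse genome (GRCm38, GENCODE vM21) to see where other genes could share their reads. Cldn11 lies on chromosome 3 from 31149920 to 31164324 on the plus strand and overlaps no other gene. Gja1 (chromosome 10, 56377330 to 56402513, plus), F11r (chromosome 1, 171437535 to 171464603, plus), Ocln (chromosome 13, 100496507 to 100552718, minus) and Espn (chromosome 4, 152120331 to 152152371, minus) also overlap none. Cldn3 (chromosome 5, 134986214 to 134987472, plus) shares its last 40 bases with the antisense gene Wbscr25. Jam3 (chromosome 9, 27097384 to 27155421, minus) holds the antisense gene Gm48796, which had 20 UMIs in all cells together. Cdh2 holds the antisense gene Gm15485 with 65 UMIs. Tjp1 (chromosome 7, 65296165 to 65527781, minus) contains 3 short models, of which Gm44794 had 2 UMIs and the other 2 are not listed in the tables. Whether the counting used strand is not given in the sources used here, so reads of Cldn3 and Wbscr25 cannot be told apart where they overlap.

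The stretch before the transcription start is shown for Cldn11, Cldn3 and Gja1, since UMIs of these 3 genes were counted in different sets of cells. Cldn11 was counted in Sertoli marker cells, and Gja1 in Sertoli-like, Leydig-like and several germ cell clusters. Cldn3 was counted in Sertoli marker cells and also in spermatids, where the part of Wbscr25 reads was not tested. RefSeq start windows (GRCm38.p6) were found for 7 of the 9 genes. The 250 bases before the start are written 5′ to 3′ on the strand of the gene, and capitals mark matches on either strand to the CCAAT box (CCAAT), the GC box (letters GGGCGG) or the GATA core (letters AGATAA). The matches do not overlap each other.
Cldn11, chr3:31149670-31149919, plus strand: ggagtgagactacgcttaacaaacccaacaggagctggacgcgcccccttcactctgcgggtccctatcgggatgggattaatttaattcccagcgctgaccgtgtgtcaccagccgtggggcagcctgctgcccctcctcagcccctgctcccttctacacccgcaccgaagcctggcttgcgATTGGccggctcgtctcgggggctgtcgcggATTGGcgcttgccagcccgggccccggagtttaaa
Cldn3, chr5:134985964-134986213, plus strand: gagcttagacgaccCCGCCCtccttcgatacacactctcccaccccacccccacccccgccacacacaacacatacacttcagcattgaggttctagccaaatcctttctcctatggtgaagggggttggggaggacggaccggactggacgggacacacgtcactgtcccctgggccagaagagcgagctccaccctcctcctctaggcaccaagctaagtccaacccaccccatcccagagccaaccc
Gja1, chr10:56377050-56377299, plus strand: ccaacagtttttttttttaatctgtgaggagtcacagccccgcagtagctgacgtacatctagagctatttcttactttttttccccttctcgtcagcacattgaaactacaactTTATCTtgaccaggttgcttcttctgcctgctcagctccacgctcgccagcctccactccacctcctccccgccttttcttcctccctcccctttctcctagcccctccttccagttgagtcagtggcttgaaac

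Cldn11 carried the CCAAT box on the opposite strand at 66 and 35 bases before its start, Cldn3 the GC box at 236 bases and Gja1 the GATA core at 135 bases, both also on the opposite strand. Of 32851 windows of this length, 33.8% hold the CCAAT box, 32.7% the GC box and 9.99% the GATA core. These letters describe the windows and were not related to any measured binding.

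The genes differed in how their Sertoli-like level compared with that of the pooled germ cells. In KO, 7 of the 9 genes were at least 5-fold higher in the Sertoli-like cluster than in the pooled germ cells, the exceptions being Tjp1 and Cdh2, and 13.5% of 23945 genes met that rule. In WT it was 5 of the 8 genes with enough UMIs, Cldn11, Cldn3, Gja1, F11r and Espn, beside 9.01% of 22044 genes. With the Sertoli marker cells it was 7 of 9 in KO, beside 13.8% of all genes, and 6 of 8 in WT, beside 12.6%, with Jam3 added. The KO ratios in the marker cells were 480-fold for Cldn11 (407 to 571), 77.2-fold for F11r (65.2 to 91.8), 74.3-fold for Ocln (49.4 to 115), 64.2-fold for Espn (56.3 to 73.4), 27.4-fold for Gja1, 7.87-fold for Jam3 and 7.46-fold for Cldn3. Tjp1 was higher by 2.59 to 3.45-fold, the bounds of its interval, and Cdh2 4.80-fold (4.05 to 5.66). In WT, Cdh2 was not higher in the marker cells than in germ cells, at 0.783-fold (0.0198 to 4.38).

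**Figure D3:**
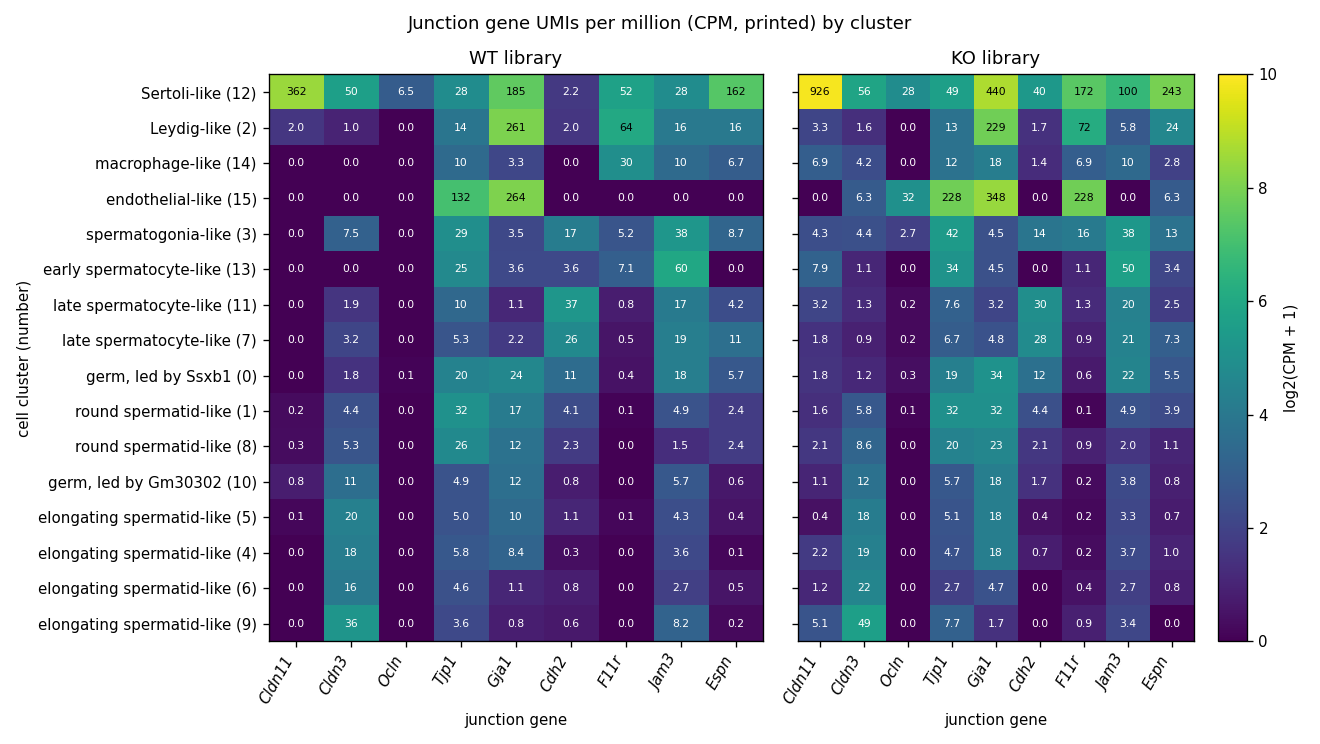
Each cell of the grid gives the level of a junction gene in CPM in 1 cluster of the WT (left) or KO (right) library, coloured by log2(CPM + 1). Rows run from somatic clusters through germ cell clusters in an order set by their names, with the cluster number in brackets, and the WT endothelial-like row is a single cell. Cldn11 stands at 362 and 926 CPM in the Sertoli-like row and under 8 CPM in every other row.

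Among the other somatic cells, Leydig-like cells, the androgen-producing cells between the tubules, shared Gja1 and F11r with Sertoli-like cells. Gja1 was at 261 CPM in 93 WT cells (230.5 to 294) and 229 CPM in 1170 KO cells (219 to 238), with a UMI in 76.3% and 72.6% of cells. F11r was at 64.5 CPM (49.9 to 82.0) and 71.9 CPM (66.8 to 77.2). Espn stood at 15.6 and 23.6 CPM and Tjp1 at 13.7 and 12.8 CPM, with overlapping intervals in each case. Ocln had 0 UMIs in both libraries, which allows a level of up to 2.93 CPM in WT and 0.292 CPM in KO. Of the 8 genes with enough UMIs, none was at least 2-fold higher in KO, beside 2.99% of 15329 genes. Jam3 was the 1 gene at least 2-fold lower, at 15.6 CPM (16 UMIs) in WT and 5.84 CPM (60 UMIs) in KO, a log2 ratio of -1.42 (-2.23 to -0.52), and 11.1% of all genes met that rule. With cells thinned to 5729 UMIs it was -1.05 (-2.23 to 0.36) and no longer met the rule. Genes over 5 times higher in germ clusters than in somatic ones made up 6.10% of WT and 2.56% of KO UMIs in Leydig-like cells, and their part in the Jam3 value was not tested. The Leydig-like ratio had a median of -0.06 over all genes counted.

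Relative to Sertoli marker cells, the strongly expressed Sertoli markers had a median level of 0.623% among WT and 0.851% among KO Leydig-like cells, although single markers reached 56.9% and 54.1%. Cldn11 was at 0.192% and 0.315% of its own Sertoli marker cell level, and the part of stray RNA in it was not tested. Cldn3, with 1 UMI in WT and 16 in KO, was at 0.935% and 2.61%. Gja1 was at 49.3% and 45.6%, and F11r at 52.0% and 37.1%.

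The endothelial-like cluster had 24 KO cells and 1 WT cell, so only its KO levels are given. Tjp1 was at 228 CPM (36 UMIs), Gja1 at 348 CPM (55 UMIs), F11r at 228 CPM (36 UMIs) and Ocln at 31.7 CPM (5 UMIs), while Cldn11, Cdh2 and Jam3 had 0 UMIs, which allows up to 19.0 CPM. Tjp1 was thus at 411% of its level in KO Sertoli marker cells and F11r at 118%. Endothelium has tight junctions of its own, built on claudins that are not among these 9. In the 23 WT and 71 KO macrophage-like cells the 9 genes ranged from 0 to 30.1 CPM and from 0 to 18.0 CPM. F11r was the highest in WT, with 9 UMIs, and had 5 UMIs and 6.92 CPM in KO, a log2 ratio of -2.12 (-4.04 to -0.39). At resolution 0.8 a stromal fibroblast-like cluster separated, with 18 WT and 104 KO cells. F11r was lower in KO there as well, at 108 CPM (21 UMIs) against 38.1 CPM (34 UMIs), a log2 ratio of -1.50 (-2.33 to -0.65). The median log2 ratio over all genes counted was 0.19 in macrophage-like and 0.002 in stromal fibroblast-like cells. Genes over 5 times higher in germ than in somatic clusters made up 24.2% of WT and 18.8% of KO UMIs in macrophage-like cells. In the stromal fibroblast-like cells they made up 20.3% and 9.76%. Their part in the F11r values was not tested.

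The germ cell clusters are given from spermatogonia-like to elongating spermatid-like, an order set by their names. The place of 2 clusters in it is uncertain. The cluster led by Ssxb1 had a mean log2 fold of -0.128 for round spermatid markers and -0.131 for late spermatocyte markers. At resolution 0.8 its leading genes were divided between a cluster named round spermatid-like and a cluster named late spermatocyte-like. Without integration a cluster with most of these leading genes took the late spermatocyte name. The cluster led by Gm30302 took the round spermatid name although its mean log2 fold was 1.08 for elongating spermatid markers and -0.383 for round spermatid markers.

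Germ cells held Tjp1, Jam3, Cdh2, Gja1 and Cldn3 in clusters that differed from gene to gene. Jam3 was highest at the start of the germ cell series. It stood at 37.5 CPM in WT and 38.1 CPM in KO in spermatogonia-like cells, and at 60.5 CPM (17 UMIs) and 49.8 CPM (44 UMIs) in early spermatocyte-like cells. It fell to between 16.6 and 21.5 CPM in the late spermatocyte-like clusters and the cluster led by Ssxb1, and was at most 8.19 CPM in the other clusters. The interval of the KO over WT ratio included no change in each of the 12 germ cell clusters.

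Cdh2 peaked in late spermatocyte-like cells, at 37.0 CPM in WT (194 UMIs) and 29.6 CPM in KO (155 UMIs) in the cluster with Piwil1 among its leading genes, and at 25.6 and 27.6 CPM in the other late spermatocyte cluster. In KO these values were under its level in Sertoli marker cells of 45.4 CPM. In WT they lay above the 6.53 CPM of the marker cells, whose interval reached 36.4 CPM. By elongating stages Cdh2 was at most 1.13 CPM in either library.

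Tjp1 had 2 high stretches. It was at 29.4 CPM in WT and 42.4 CPM in KO in spermatogonia-like cells, fell to between 5.30 and 9.54 CPM in late spermatocytes, and rose again to 32.2 and 31.8 CPM in the round spermatid-like cluster with Tssk5 among its leading genes. It was at most 7.67 CPM in elongating clusters. The spermatogonia-like ratio was a log2 of 0.53 (0.10 to 0.98) beside a median of 0.06 over all genes of that cluster.

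Gja1 was low in spermatogonia-like and spermatocyte-like clusters, at most 3.56 CPM in WT and 4.78 CPM in KO. Its highest germ cell level, 24.0 CPM in WT and 33.7 CPM in KO, was in the cluster led by Ssxb1, and it was at 0.799 and 1.70 CPM in the last elongating cluster. The KO level was higher in 9 of the 10 germ cell clusters with at least 10 Gja1 UMIs by an interval above no change, with log2 ratios between 0.49 and 2.09 in those 9. Among 7861 genes counted in at least 10 germ cell clusters, 3.45% showed this in at least 9, and Gja1 was the 1 of 4 junction genes so counted. In the round spermatid-like cluster with Tssk5, for example, Gja1 had 215 UMIs in WT (16.8 CPM) and 325 in KO (31.5 CPM), a log2 ratio of 0.91 (0.66 to 1.17), where the median of all genes was 0.05.

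Sertoli and Leydig marker RNA was also higher in KO germ cells. Strongly expressed Sertoli markers stood at a median of 0.0647% of their Sertoli marker cell level in WT pooled germ cells and at 0.350% in KO, and Leydig markers at 0.0289% and 0.248% of their Leydig-like level. Gja1 in the KO round spermatid-like cluster with Tssk5 was at 6.29% of its Sertoli marker cell level and 13.8% of its Leydig-like level, where those markers stood at medians of 0.264% and 0.266%. The part of stray RNA in the KO excess of Gja1 was not tested.

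**Figure D4:**
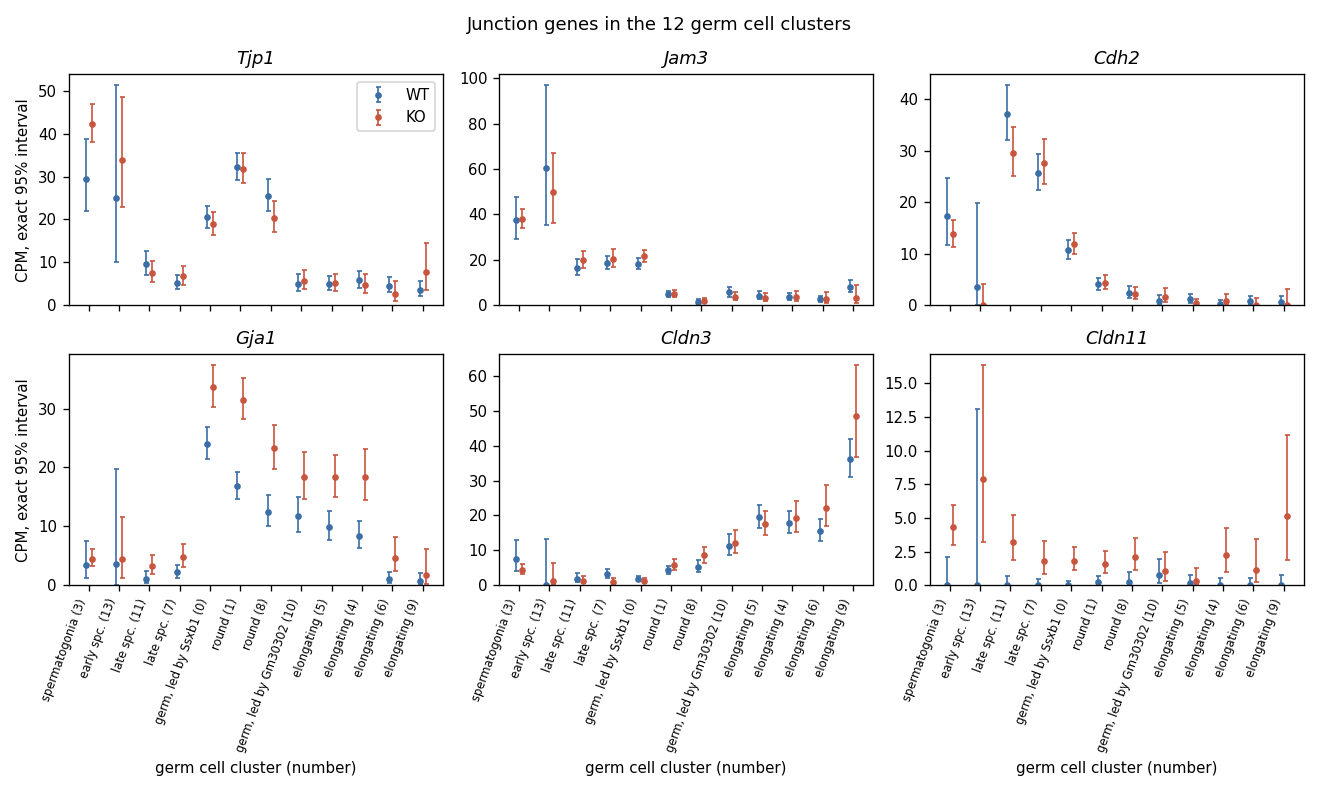
Level in CPM with exact 95% Poisson intervals of 6 junction genes in the 12 germ cell clusters, in the order of their names with the cluster number in brackets, WT in blue and KO in red. Tjp1, Jam3, Cdh2 and Cldn3 run close together in the 2 libraries over most clusters, and Cldn11 stays under 8 CPM. Gja1 lies higher in KO in most clusters, including both late spermatocyte-like ones, and has 4 WT and 2 KO UMIs in the last elongating cluster.

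Cldn3 went from 1.79 CPM in WT and 1.20 CPM in KO in the cluster led by Ssxb1 to 36.2 CPM (181 UMIs) and 48.6 CPM (57 UMIs) in the last elongating cluster. Its antisense neighbour Wbscr25 rose over the same clusters from 37.4 and 24.7 CPM to 1567 and 1598 CPM. In the 7 clusters that follow the cluster led by Ssxb1, Cldn3 had between 1.83 and 3.64 UMIs for every 100 of Wbscr25 in either library. In the KO Sertoli-like cluster there were 57.2 Cldn3 UMIs per 100 of Wbscr25, and in WT 12.1. The late spermatocyte-like clusters had between 9.26 and 14.5 in either library, a range that holds the WT Sertoli-like value. Cldn3 in spermatids ran in step with a gene whose reads can overlap its last 40 bases, and the part of those reads in the Cldn3 counts was not tested.

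**Figure D5:**
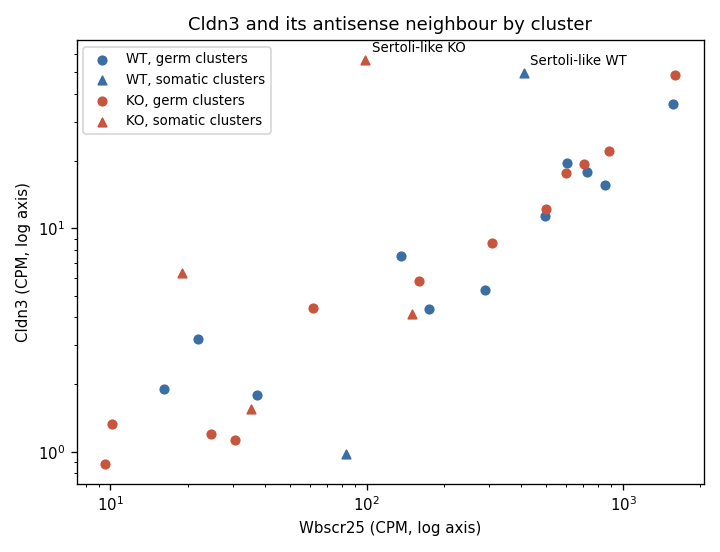
Cldn3 against Wbscr25, each in CPM on a log axis, with 1 point per cluster and library where both had a UMI, circles for germ cell and triangles for somatic clusters. The spermatid points rise together to 36.2 and 48.6 CPM Cldn3, and both Sertoli-like points lie above that band.

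Cldn11, Ocln and F11r were the 3 genes at least 2-fold higher in KO over the pooled germ cells, where 24.8% of 25226 genes were, and none of the 9 was 2-fold lower, beside 1.78%. Within the late spermatocyte-like cells Cldn3 was lower in KO, with 36 UMIs in WT and 12 in KO, a log2 ratio of -1.29 (-2.37 to -0.32). In the cluster with Piwil1 it was -0.52 (-2.15 to 1.03), and in the other late spermatocyte cluster -1.86 (-3.59 to -0.45). Wbscr25 went from 19.8 to 9.82 CPM in the same cells, and its part in the Cldn3 ratio was not tested. Espn had a ratio of -0.80 (-1.29 to -0.32) there and Gja1 one of 1.17 (0.42 to 1.95), while Cldn11 had 0 and 27 UMIs. The median over all genes counted in these cells was 0.06. Over the pooled germ cells the median log2 ratio was 0.55 for the 9 genes and 0.35 for all genes counted. Cldn11 had 10 UMIs in 5590 WT germ cells and 145 in 5267 KO germ cells, 2.19 CPM. That KO level was 0.208% of the level in Sertoli marker cells, where the Sertoli markers stood at a median of 0.350%. Cst9 and Clu, both abundant in Sertoli cells, were at 0.244% and 0.239% there, and the part of stray RNA in these counts was not tested. F11r and Ocln had 134 and 23 of their 166 and 29 KO germ cell UMIs in the spermatogonia-like cluster. F11r was at 16.0 CPM there (9 UMIs and 5.19 CPM in WT), which is 8.25% of the KO Sertoli marker cell level, and Ocln was at 2.74 CPM, 8.43% of it. Sertoli markers in the same KO cells were at a median of 0.400%. That cluster held 192 WT and 1064 KO cells, so a pooled germ cell value gives it far more weight in KO. With equal weight for each of the 12 germ cell clusters the log2 ratio of F11r went from 2.92 to 0.69, that of Ocln from 5.10 to 5.42 and that of Cldn11 from 4.10 to 4.54. The WT side of the Ocln ratio was 1 UMI, and the pooled interval was wide (2.51 to 10.46). Only 1 of the 12 clusters had at least 10 Ocln UMIs.

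Over 31 sums of at least 20 cells, 1 for each cluster and library, the pattern of Cldn11 was most like those of Gm14569 (Pearson r = 0.97), Cst12 (0.97) and Defb45 (0.96), on log2(CPM + 1). Ocln was most like Sema7a, Igfbp3 and Wt1 (0.96, 0.95 and 0.95), of which Wt1 is a transcription factor of Sertoli cells. For F11r, Prdx3 and Lima1 were among the most alike, both at 0.96. Values were lower for Gja1 (Arid5b, Cald1 and Cyr61, 0.92 to 0.87), Espn (Sgk3, Laptm4b and Syne2, 0.91 to 0.89), Jam3 (Ipp, Mrps6 and Klc2, 0.91 to 0.89), Tjp1 (Actn1, Vcl and Alg14, 0.88 to 0.86), Cdh2 (Gmpr2, Slc19a2 and Tepsin, 0.87 each) and Cldn3 (Gm614, Gm40662 and Plekhh2, 0.85 to 0.84). Within the 9 genes the closest pair was F11r with Espn (0.73), and Cldn3 with Jam3 was the least alike (-0.30). The sums share 2 libraries and their clusters, so these are descriptions only.

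Other genes of the same junctions were read from lists of related genes. Their counts stand beside the shares of all genes counted, which were 21.0% higher and 11.5% lower in the cluster and 2.27% higher and 3.39% lower in the marker cells. Of 20 other claudins, 19 were listed in the tables and 5 had at least 10 UMIs in the Sertoli-like cluster, of which only Cldn7 (0 UMIs in WT and 56 in KO) met the 2-fold rule. In the Sertoli marker cells 4 were counted and none met it. Of 24 other tight junction plaque and polarity genes, 18 were counted in the cluster, 3 at least 2-fold higher in KO and 2 lower, near the 21.0% and 11.5% of all genes, with a median log2 ratio of 0.42. In the marker cells 15 were counted, none met the rule in either direction and the median was 0.34. Cgn, which encodes cingulin, a cytoplasmic partner of ZO-1, went from a log2 ratio of 1.31 (0.70 to 2.00) in the cluster to 0.11 (-0.55 to 0.85) in the marker cells.

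Among 10 other immunoglobulin-like adhesion genes, 7 were counted in the cluster, with 4 higher and 1 lower beside 21.0% and 11.5% of all genes, and 6 in the marker cells, with none past the rule. Cadm1, an adhesion molecule, had 59 UMIs in WT and 1543 in KO in the cluster, a log2 ratio of 1.36 (0.99 to 1.76), and in the marker cells 0.15 (-0.25 to 0.58). Jam2, a partner of JAM-C, had ratios of 1.61 (1.06 to 2.21) and 0.59 (-0.04 to 1.29). Of 18 listed gap junction genes other than Gja1, 5 were counted in the cluster with 1 higher, Gja6. In the marker cells 3 were counted, with 0 higher and 1 lower.

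The 33 other adherens junction and ectoplasmic specialization genes had 25 members counted in the cluster, of which 12 were at least 2-fold higher in KO and 0 lower, beside 21.0% and 11.5% of all genes. In the marker cells 24 were counted, with 2 higher beside 2.27% of all genes and 1 lower beside 3.39%, Afdn, which encodes afadin, at 98.0 CPM in WT and 30.1 CPM in KO. The 2 higher were Zyx, which encodes the focal adhesion protein zyxin, at 52.3 CPM (8 UMIs) in WT and 232 CPM (953 UMIs) in KO, and Vcl, which encodes vinculin, at 32.7 CPM (5 UMIs) and 117 CPM (481 UMIs). Their log2 ratios were 2.15 (1.16 to 3.36) and 1.84 (0.61 to 3.47). Eps8, an actin regulator of the ectoplasmic specialization, was at 118 and 115 CPM. The 9 desmosome genes had 1 member counted in either set of cells, and it did not meet the rule.

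Of 27 listed genes of signalling to the barrier, 25 were counted in the cluster with 13 higher and 0 lower beside 21.0% and 11.5% of all genes. In the marker cells 24 were counted with 2 higher and 0 lower, beside 2.27% and 3.39%. Timp1, which encodes a metalloproteinase inhibitor, was among these 2. Timp1 had 0 UMIs in WT marker cells and 361 in KO, at least 4.48-fold higher when WT is set to 3 UMIs.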

How the data were processed

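Single cells of mouse testis were measured in 1 WT and 1 Alkbh5-/- library. Per the methods and processing notes, the authors trimmed reads with fastp, aligned them with STAR 2.5.3a, assigned them to genes with featureCounts 1.6.2 and deposited a table of UMI counts per gene and barcode for each library. The methods name a human genome build, while the rows are mouse symbols. The strand setting and how barcodes were chosen are not given in the sources used here. The cell number the study states is lower than the number of barcodes in the files, and its filter of over 500 genes leaves all of them.

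The counts were clustered after the study's settings with Seurat 5.3.0 in R 4.3.3 (2000 variable features, 20 anchor dimensions, 30 principal components, resolution 0.3), leaving 153 junction genes out of the features. Clusters were named X-like from marker lists. Scrublet, run through scanpy 1.11.5, marked 244 WT and 345 KO cells as doublets, which were kept in the values given. UMIs were summed per library and class, and genes with at least 10 UMIs in both libraries together were compared. A gene counted as higher or lower when the CPM ratio was at least 2 or at most 0.5 with its exact 95% conditional interval on that side of no change. Shares of cells have Clopper-Pearson intervals, and a count of 0 was read as up to 3 UMIs. With 1 library per genotype no test was made. Scripts were tested on simulated data.

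All 9 junction genes are named, and of the other lists the genes with the most UMIs or past the rule, except a few that are not reported here. The genes and lists were chosen with earlier results of these data known. The alternatives changed the gene minimum per cell, resolution, integration, features, doublets, scaling, depth, weight of germ cell clusters and count minimum.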

Additional observations from a re-analysis of the deposited data

Results flagged for a closer look

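Among the somatic classes and the pooled germ cells, the KO over WT ratio of 3 junction genes, Gja1, F11r and Jam3, had intervals on opposite sides of no change in different classes, and these contrasts could not be tested with 1 library per genotype. For Gja1 the log2 ratio in the Sertoli-like cluster exceeded that in Leydig-like cells by 1.44, and the ratio in pooled germ cells exceeded it by 0.97. For Jam3 the corresponding differences were 3.25 and 1.97. For F11r the Sertoli-like ratio exceeded that in the stromal fibroblast-like cells found at resolution 0.8 by 3.24 and that in macrophage-like cells by 3.85, and the pooled germ cell ratio exceeded them by 4.43 and 5.04. The Sertoli-like side depends on which cells of the cluster are summed, since in the Sertoli marker cells the log2 ratio of Gja1 was -0.08 and those of Jam3 and F11r were both 0.64 with intervals that include no change. With the Sertoli marker cells in place of the cluster, Espn also had intervals on opposite sides of no change. Its log2 ratio was -0.46 (-0.85 to -0.06) there and 0.37 (0.12 to 0.62) in pooled germ cells, or 0.10 with equal weight per germ cell cluster. The Leydig-like log2 ratio of Gja1 was -0.19, with an interval that ends just under no change (-0.374 to -0.003). The median over all genes counted in Leydig-like cells was -0.06. The Leydig-like value of Jam3 rests on 16 WT and 60 KO UMIs. That of F11r in macrophage-like cells rests on 9 and 5. With equal weight for each germ cell cluster, the germ cell log2 ratio of F11r went from 2.92 to 0.69 and that of Jam3 from 0.55 to -0.07. That of Gja1 went from 0.78 to 0.80. The part of cell composition in these differences was not otherwise tested.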

How the results depend on the processing

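The count of junction genes at least 2-fold higher in the KO Sertoli-like cluster, 6 of 9, was 1 with cells holding at least 1% Sertoli marker UMIs, 1 with cells holding under 5% elongating spermatid marker UMIs and 1 when scaled by the Sertoli markers, which also gave 1 gene lower in place of 0. These 3 alternatives were chosen after seeing the data. Under them, in that order, the log2 ratio of Tjp1 turned to -0.38, -0.40 and -0.42, that of Espn to -0.46, -0.39 and -0.65, and that of Cldn3, 0.19 with an interval including no change, to -0.81, -0.49 and -1.05. Gja1 turned to -0.079 under the first. In Leydig-like cells the count of lower genes went from 1 to 0 when cells were thinned to 5729 UMIs, where Jam3 stood at -1.05 (-2.23 to 0.36). In pooled germ cells, equal weight per cluster turned Cldn3 to 0.20, Cdh2 to -0.18 and Jam3 to -0.071, and median of ratios scaling turned Cdh2 to -0.10 and moved 7 more of 26 ratios beyond their counting intervals. Thinning moved 4 of 24. Without integration 2 of 26 moved, Cldn11 to 1.00 and Gja1 to 0.91 in the Sertoli-like cluster. Resolution 0.8, over 1000 genes per cell, junction genes among the features and removal of doublets left all 26 ratios within their counting intervals. Few UMIs in the 16 WT Sertoli marker cells limit Ocln, Cdh2, Tjp1, Jam3 and Cldn3 most. No paired analysis was possible because each genotype has 1 library and no test was made.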
